A study of Homo sapiens with 54 samples.

Results

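Expression of 47 genes that act in mitosis and on the spindle was followed through androgen withdrawal and enzalutamide treatment of LNCaP xenografts. The genes were chosen by name, among 60642 human gene symbols, for their roles from mitotic entry to cytokinesis. The choice was made with earlier results of these data known. LNCaP (clone FGC) is a human, androgen-sensitive prostate cancer cell line. From it, 54 tumors were grown under the skin of male NOD-SCID mice, 1 tumor per mouse. The mice were 5 to 6 weeks old when sourced and had at least 1 week to acclimatize. Mice had surgery when tumors reached about 200 mm3. PRE-CX tumors (n = 9) came from mice with mock surgery and intact testes and were harvested at 1000 mm3. All other hosts were castrated. POST-CX tumors (n = 8) were taken 1 week after castration, at the lowest serum level of prostate-specific antigen (PSA), and CRPC tumors (n = 10) when PSA had recurred or the tumor had reached 1000 mm3 without further treatment. Enzalutamide, an antagonist of the androgen receptor, was given by oral gavage at 10 mg/kg on 5 days per week from the time PSA rose again after castration. ENZS tumors (n = 12) were collected at the second low point of PSA on the drug, and ENZR tumors (n = 15) when PSA had recurred or the tumor had reached 1000 mm3 despite the drug. All tumors descend from 1 cell line, so the spread between them is that of separate mice and not of separate patients.

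When a cell enters mitosis, cyclin-dependent kinase 1 bound to B-type cyclins starts chromosome condensation and spindle assembly, kinetochores attach chromosomes to microtubules, and the spindle checkpoint delays anaphase until every chromosome is attached. The anaphase-promoting complex (APC/C) then marks securin and cyclin B for destruction, and a contractile ring separates the daughter cells. Most of these genes are transcribed late in the cell cycle, under the transcription factors FOXM1 and B-MYB and the DREAM complex, and they are low in resting cells. In prostate cancer cells that depend on the androgen receptor, androgens drive proliferation.

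Many of these genes share short sequence elements near their start. The CHR (cell cycle genes homology region), searched here as TTTGAA or TTCGAA on either strand, is bound by the DREAM and B-MYB complexes, and CCAAT, searched on either strand, is bound by NF-Y. RefSeq promoters (GRCh38.p14) were matched by symbol, using the first listed start. They were found for 39 of the 47 genes, while AURKA, PBK, FOXM1, BIRC5, TTK, UBE2C, TPX2 and RACGAP1 had no entry. The 120 bases before the start are shown for 9 genes. The first 6 held a CHR and were among the genes that fell under enzalutamide, and INCENP and SMC4 had the smallest differences. AURKB, whose level fell, had no CHR match at the start used. That start lies inside the gene as listed (chr17:8204731-8210575), and the outer end of the gene was not searched. Capitals mark CHR and CCAAT matches, with their reverse complements (TTCAAA and ATTGG) where the match was on the other strand. In MKI67 the last CHR and a CCAAT match overlap. The only CCAAT match of AURKB lies farther from the start, outside the stretch shown.
CCNB2: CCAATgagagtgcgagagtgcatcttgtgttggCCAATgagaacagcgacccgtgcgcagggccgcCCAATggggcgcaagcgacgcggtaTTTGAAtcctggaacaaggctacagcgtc
PLK1: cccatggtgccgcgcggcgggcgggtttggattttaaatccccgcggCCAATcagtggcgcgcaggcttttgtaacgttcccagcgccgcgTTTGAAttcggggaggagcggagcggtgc
CDC20: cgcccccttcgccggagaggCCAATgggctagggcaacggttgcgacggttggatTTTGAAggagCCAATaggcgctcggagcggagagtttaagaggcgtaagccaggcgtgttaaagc
KIF23: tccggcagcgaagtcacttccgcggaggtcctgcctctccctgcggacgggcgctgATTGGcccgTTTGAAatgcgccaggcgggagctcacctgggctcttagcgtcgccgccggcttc
MKI67: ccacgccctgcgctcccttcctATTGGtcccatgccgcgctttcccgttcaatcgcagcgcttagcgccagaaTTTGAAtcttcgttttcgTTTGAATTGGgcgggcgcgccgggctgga
BUB1B: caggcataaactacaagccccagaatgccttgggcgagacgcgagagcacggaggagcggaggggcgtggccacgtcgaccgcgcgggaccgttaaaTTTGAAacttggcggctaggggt
INCENP: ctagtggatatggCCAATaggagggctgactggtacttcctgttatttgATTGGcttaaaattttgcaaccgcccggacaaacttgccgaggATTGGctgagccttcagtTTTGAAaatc
SMC4: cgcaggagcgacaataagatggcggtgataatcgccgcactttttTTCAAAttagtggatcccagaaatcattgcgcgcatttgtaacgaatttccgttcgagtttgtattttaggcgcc
AURKB: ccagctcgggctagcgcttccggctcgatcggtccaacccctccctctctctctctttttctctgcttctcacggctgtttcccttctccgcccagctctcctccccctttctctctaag

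These stretches lie as follows, CCNB2 at chr15:59105026-59105145, plus strand, PLK1 at chr16:23678769-23678888, plus strand, CDC20 at chr1:43358861-43358980, plus strand, KIF23 at chr15:69414229-69414348, plus strand, MKI67 at chr10:128126424-128126543, minus strand, BUB1B at chr15:40160949-40161068, plus strand, INCENP at chr11:62123891-62124010, plus strand, SMC4 at chr3:160399530-160399649, plus strand, AURKB at chr17:8210226-8210345, minus strand. From 250 bases before to 50 bases after the start, 29 of the 39 promoters (74.4%) held a CHR match, against 11.0% of the 10972 promoters of tested genes and 16.6% of all 27305 promoters in the table. CCAAT was found in 28 of 39 (71.8%), against 37.1% of tested-gene promoters. Both elements were found in 22 of 39 (56.4%), against 4.81%. The 40 CHR matches had a median position of 28 bases before the start, and the 63 CCAAT matches a median of 75 bases before it. INCENP, with 1 CHR and 3 CCAAT matches, was among the 22 with both elements. SMC4, with 1 CHR and no CCAAT match, was not. A match is a string of letters in this window and does not show that a factor binds there.

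Levels are given as rescaled TPM. TPM is a measure of transcript abundance scaled for transcript length, and the human symbols of each tumor were rescaled to sum to 1000000, since the deposited values, quantified against human and mouse genes together, summed to less over the human symbols. Human symbols made up 12.1% to 97.5% of the deposited total (median 89.9%). The lowest were ENZR tumor 87 (12.1%) and POST-CX tumor 91 (27.9%), and several results are also given without them. Between 14517 and 16742 genes reached 1 rescaled TPM in a tumor. All 47 mitosis and spindle genes were among the 17593 genes tested, those at 1 rescaled TPM or more in at least 8 tumors. Differences are on the log2(rescaled TPM + 1) scale, which understates the change of low genes, and a call needed both a difference of at least 1 and, from limma with Benjamini-Hochberg adjustment over all tested genes, an adjusted p under 0.05. All 11 LNCaP and luminal prostate markers had a median of 1 rescaled TPM or more in every group.

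The mitosis and spindle genes were high in PRE-CX, POST-CX and CRPC tumors and low in tumors responding to enzalutamide. The mean of the 47 genes ranged from 4.35 to 5.27 on the log2 scale in PRE-CX (median 4.87), from 2.90 to 5.02 in POST-CX (median 4.51) and from 3.57 to 5.02 in CRPC (median 4.31). In ENZS it ranged from 1.27 to 3.64 (median 2.13), and in ENZR from 1.28 to 4.46 (median 2.81). Only the ENZS and ENZR groups thus held tumors below the lowest POST-CX tumor, number 91.

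**Figure D1:**
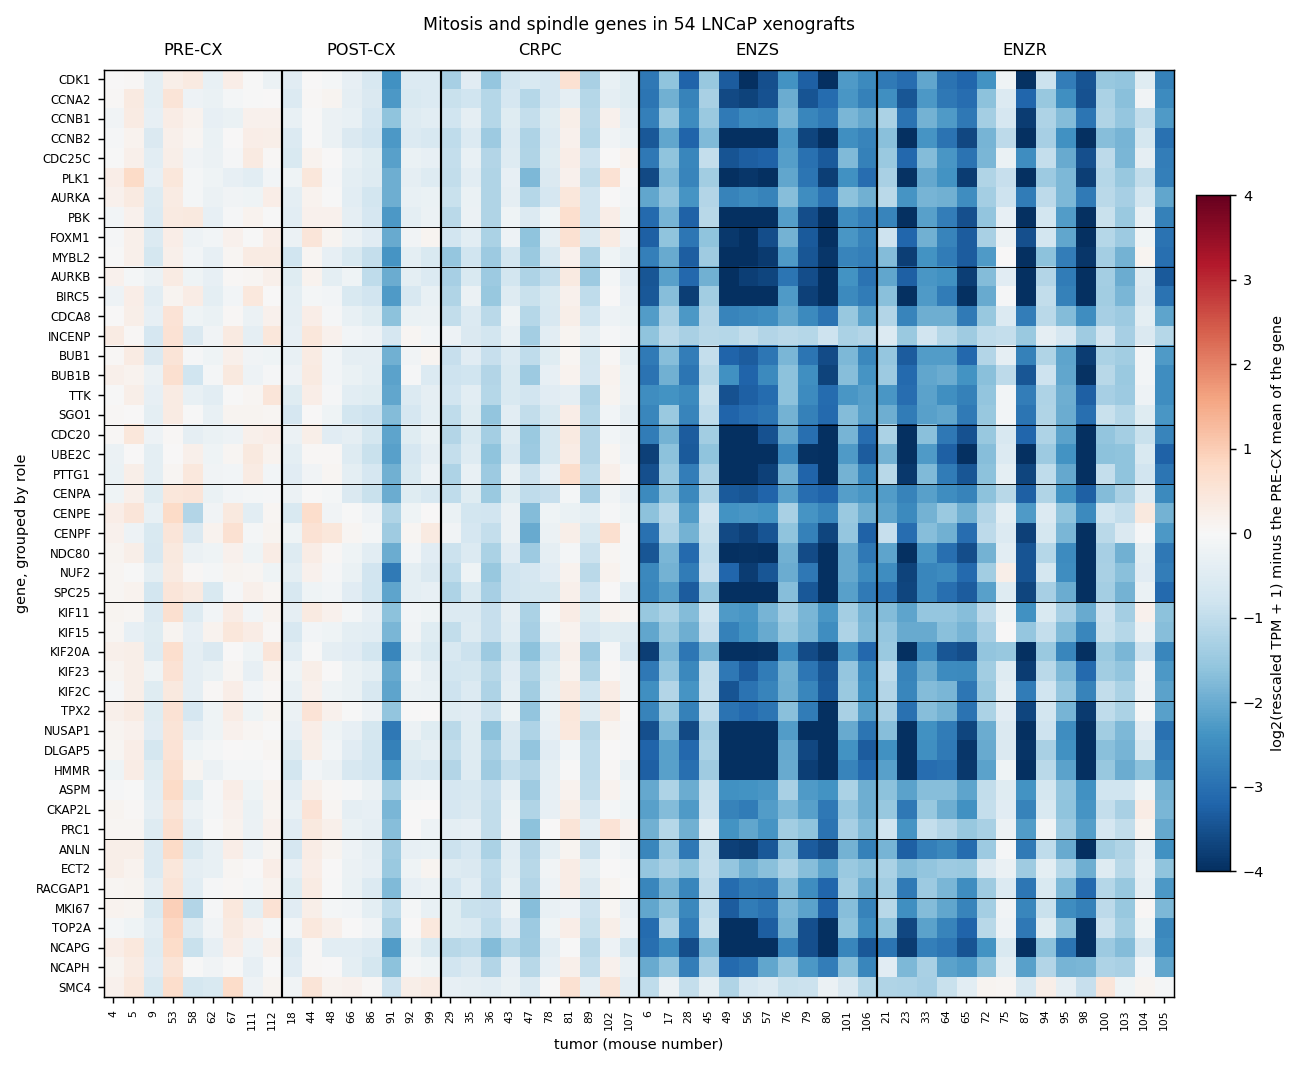
Each row is 1 of the 47 genes and each column 1 of the 54 tumors, colored by log2(rescaled TPM + 1) minus the PRE-CX mean of that gene, with color limits at 4 in either direction. ENZS tumors are low across nearly the whole list, ENZR tumors range from that low level to near the PRE-CX level, and SMC4 and INCENP change least.

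The question of the drug step is how tumors responding to enzalutamide differed from tumors that had relapsed after castration alone. Of the 47 genes, 45 fell in ENZS against CRPC, while 1.24% of all tested genes were called lower and 1.59% higher. Their median difference was -2.04, from -2.92 for PBK to -0.57 for SMC4, and PBK had the lowest difference of all tested genes. The median over all tested genes was 0.21, and after centering each tumor on its median gene the 47 genes had a median of -2.25, with 45 called. With centering 340 genes were called lower and 110 higher, against 218 and 279 without it. In these bulk samples fewer dividing cells and less RNA of these genes per cell cannot be told apart.

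Kinases and cyclins of mitotic entry fell in 8 of 8 cases, with a median of -2.14. CDK1, the kinase that drives entry into mitosis, ran from 59.7 to 267 rescaled TPM in CRPC (median 113) and from 9.55 to 60.2 in ENZS (median 20.6), so the groups met at their edge, where 11 of 12 ENZS tumors lay below every CRPC tumor. The log2 difference was -2.20 ± 0.34 (SE, adjusted p = 7.56e-06). CCNB1, the main B-type cyclin, ran from 62.4 to 163 in CRPC (median 99.6) and from 18.8 to 49.4 in ENZS (median 23.6). These ranges did not overlap, and the difference was -1.74 ± 0.25 (adjusted p = 4.54e-06). Its relative CCNB2 was lower still in ENZS, at 0.794 to 15.5 (median 4.73) against 19.5 to 62.8 in CRPC (median 37.6), and fell by 2.64. PLK1, a kinase of centrosome maturation and spindle assembly, ran from 8.95 to 50.3 in CRPC (median 23.5) and from 0.851 to 12.3 in ENZS (median 3.37), with a difference of -2.42 ± 0.37 (adjusted p = 6.21e-06). AURKA, which acts at spindle poles, fell by 1.66 and CDC25C, the phosphatase that activates CDK1, by 2.08. CCNA2 fell by 1.99.

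Both transcription factors on the list fell. FOXM1, which activates many genes of this group, ran from 13.6 to 67.4 rescaled TPM in CRPC (median 33.4) and from 1.41 to 13.8 in ENZS (median 4.35), a difference of -2.50 ± 0.38 (adjusted p = 6.63e-06). MYBL2, which encodes B-MYB, had medians of 15.3 and 2.46, a difference of -2.26 ± 0.37 (adjusted p = 1.73e-05). Subunits of the DREAM complex itself, a separate list of 11 genes, had 0 calls by limma and a median of 0.06. An unadjusted p under 0.05 was reached by 3 of them. On adjusted p alone 2 were lower and 1 higher, all under the size needed for a call. LIN9 had the lowest value of that list at -0.78.

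The chromosomal passenger complex corrects wrong attachments of chromosomes and steers cytokinesis. Its kinase AURKB ran from 8.65 to 33.4 rescaled TPM in CRPC (median 13.8) and from 0.326 to 6.07 in ENZS (median 1.77), with no overlap and a difference of -2.39 ± 0.36 (adjusted p = 5.55e-06). BIRC5 (survivin) fell by 2.86 ± 0.45 (adjusted p = 9.8e-06) and CDCA8 (borealin) by 1.60. The scaffold INCENP moved much less, from 4.93 to 15.6 in CRPC (median 11.1) to 3.99 to 7.72 in ENZS (median 5.97). Only 1 of 12 ENZS tumors lay below every CRPC tumor for INCENP, and its difference of -0.75 (95% interval -1.06 to -0.44, adjusted p = 0.000295) was under the size needed for a call. The interval of AURKB (-3.10 to -1.68) did not meet that of INCENP, and the difference between the subunits was not tested itself.

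Genes of the spindle checkpoint and of sister chromatid cohesion fell in 4 of 4 cases (median -1.86). BUB1, a checkpoint kinase at kinetochores, ran from 8.74 to 19.5 rescaled TPM in CRPC (median 12.7) and from 0.622 to 9.13 in ENZS (median 1.80), a difference with a 95% interval of -2.63 to -1.38 (adjusted p = 8.31e-06). BUB1B fell by 1.82, the checkpoint kinase TTK by 1.91 and SGO1, which protects cohesion at centromeres, by 1.73. The 3 genes of anaphase onset had the lowest median of any role, -2.66. UBE2C, which extends ubiquitin chains for the APC/C, ran from 21.9 to 85.0 in CRPC (median 42.7) and from 0.424 to 21.8 in ENZS (median 5.01), so that the highest ENZS tumor was just under the lowest CRPC tumor. UBE2C fell by 2.90 ± 0.45 (adjusted p = 8.69e-06), PTTG1 (securin) by 2.66 and CDC20, the APC/C activator, by 2.29. PTTG1 has near-identical processed copies among which RSEM divides reads, which makes its level uncertain.

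Kinetochore and centromere genes fell in 6 of 6 cases (median -2.15). CENPF, a late kinetochore protein, ran from 6.22 to 44.0 rescaled TPM in CRPC (median 23.5) and from 1.16 to 14.6 in ENZS (median 3.03), and 7 of 12 ENZS tumors lay below all CRPC tumors. Its difference was -2.15 ± 0.38 (adjusted p = 4.71e-05). NDC80 and its partners NUF2 and SPC25, which hold microtubules at the outer kinetochore, fell, with differences of -2.46, -2.15 and -2.40. CENPA, the histone of centromeres, fell by 1.85 and the motor CENPE by 1.39.

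The kinesin motors fell in 5 of 5 cases (median -1.81), with KIF20A, which acts in cytokinesis, at -2.37 and KIF15, which helps hold spindle poles apart, at -1.28. KIF11, the motor that separates the poles, ran from 4.70 to 15.9 rescaled TPM in CRPC (median 9.25) and from 1.73 to 6.81 in ENZS (median 2.95), a difference of -1.35 ± 0.23 (adjusted p = 3.47e-05). All 7 proteins that bundle or organize spindle microtubules fell (median -2.04), from NUSAP1 at -2.84 to ASPM at -1.36. The 3 cytokinesis genes fell as well, ANLN (anillin) by 2.09 ± 0.34 (adjusted p = 1.25e-05), RACGAP1 by 1.90 and ECT2, the activator of the contractile ring, by 1.17.

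Of the 5 genes of chromosome structure, 4 fell. MKI67, which encodes the proliferation marker Ki-67 that coats mitotic chromosomes, ran from 3.21 to 13.3 rescaled TPM in CRPC (median 9.37) and from 0.359 to 5.83 in ENZS (median 1.71). The ranges overlapped, 9 of 12 ENZS tumors lay below every CRPC tumor, and the difference was -1.75 ± 0.29 (adjusted p = 1.49e-05). TOP2A, the topoisomerase that untangles sister chromatids, ran from 10.7 to 37.2 in CRPC and from 0.348 to 16.1 in ENZS (median 3.15), a difference of -2.40 ± 0.41 (adjusted p = 2.43e-05). The condensin I subunits NCAPG and NCAPH, which compact chromosomes, fell by 2.43 and 1.72. SMC4, the ATPase shared by both condensins, ran from 31.5 to 70.6 in CRPC (median 35.9) and from 19.7 to 39.3 in ENZS (median 26.7). Its difference of -0.57 (95% interval -0.96 to -0.17, adjusted p = 0.0223) passed on p and not on size.

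**Figure D2:**
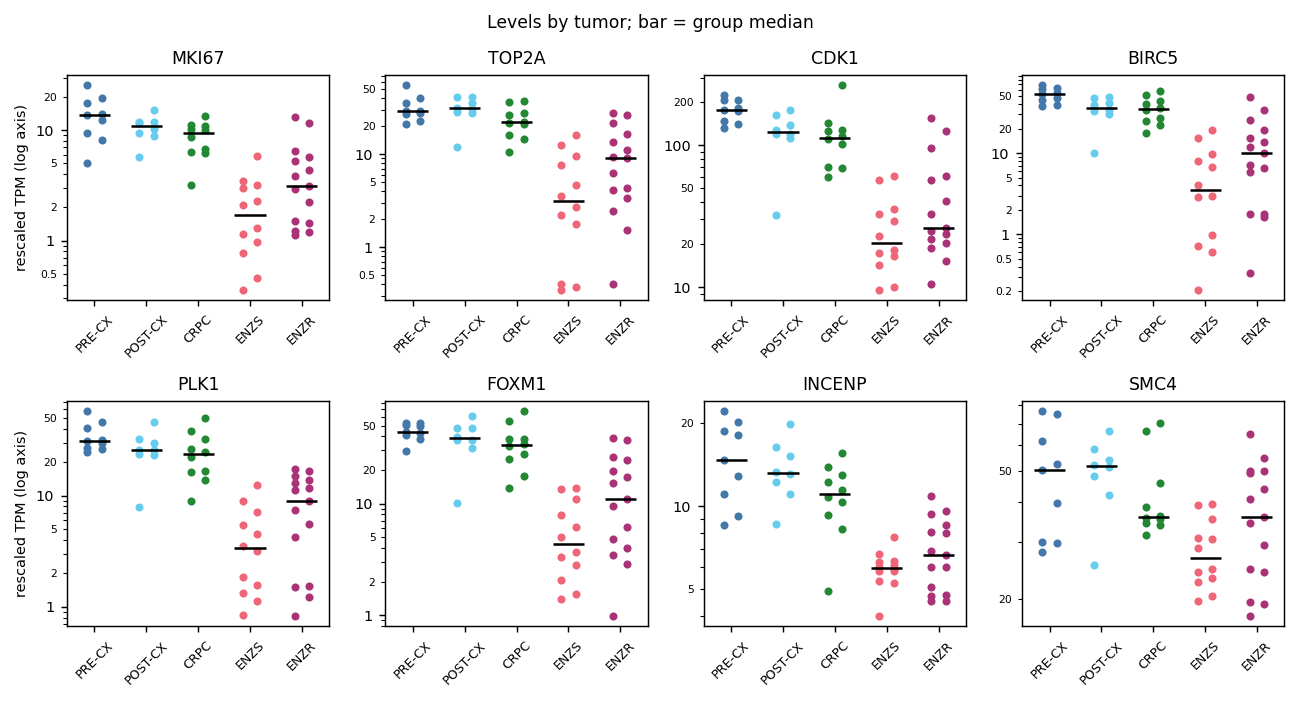
Each point is 1 tumor, each bar the group median, and the vertical axes are logarithmic in rescaled TPM, for 8 of the 47 genes. MKI67, TOP2A, CDK1, BIRC5, PLK1 and FOXM1 have ENZS medians far below CRPC (for CDK1, 20.6 against 113), whereas INCENP (5.97 against 11.1) and SMC4 (26.7 against 35.9) lie closer together.

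Seen over the list, group means in CRPC were 1.52 (SMC4) to 6.79 (NCAPG) times those in ENZS, with a median of 4.53. For 11 of 47 genes every ENZS tumor lay below every CRPC tumor, which held for 0.864% of all tested genes, and for another 24 genes 11 of the 12 ENZS tumors did. The tumor that most often broke the separation was ENZS 45, the highest ENZS tumor in 43 of the 47 genes. Without it the median difference was -2.17.

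Human symbols of genes that mark stroma, vessel and blood were looked at beside this fall. The hosts were mice and mouse genes are not among these values, so the sums do not measure host cells. The 20 markers of stroma, vessel and blood summed to 43.3 to 325 rescaled TPM in ENZS (median 71.7) and to 19.8 to 109 in ENZR (median 88.9), against 26.4 to 112 in CRPC (median 36.3), 19.0 to 49.2 in POST-CX (median 33.8) and 20.7 to 33.4 in PRE-CX (median 26.7). A median of 1 rescaled TPM or more was reached by 8 of the 20 markers in ENZS and in ENZR, 7 in CRPC, 6 in POST-CX and 4 in PRE-CX. The vessel markers PECAM1 and CDH5, the leukocyte marker PTPRC and the hemoglobin genes HBB and HBA1 had medians at or near 0 in every group. The vessel marker VWF did not follow the sum and was highest in PRE-CX. Its medians were 4.90 in PRE-CX, 3.19 in POST-CX, 1.07 in CRPC, 1.55 in ENZS and 1.03 in ENZR. Of the 8 markers that passed the expression filter, 3 were called higher in ENZS than in CRPC. The median sum of these markers was thus higher in both groups on the drug, where the mitosis and spindle genes were lower, and their part in the result was not tested.

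Against intact tumors the differences were wider. In ENZS against PRE-CX, 46 of 47 genes fell, where 3.09% of all tested genes were called lower and 10.5% higher. The median was -2.57, from UBE2C at -3.59 (adjusted p = 7.53e-09) and BIRC5 at -3.48 to INCENP at -1.16 and SMC4 at -0.73 (adjusted p = 0.00203). NUSAP1, HMMR and NCAPG, at -3.43, -3.32 and -3.32, were among the 5 with the largest differences. For 44 of 47 genes no ENZS tumor reached the lowest PRE-CX tumor, against 2.94% of all tested genes, the exceptions being MKI67, CENPE and SMC4. PRE-CX means were 1.75 to 12.9 times the ENZS means, with a median of 6.58. Centering changed the balance over all genes to 990 lower and 909 higher, from 544 and 1840, and gave 47 called genes with a median of -2.87.

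Responding tumors under castration alone and under castration with enzalutamide also differed. POST-CX tumors were taken 1 week after castration and ENZS tumors later, at the second low point of PSA. The drug and the time since castration therefore cannot be told apart here. In ENZS against POST-CX, 46 of 47 genes fell (median -2.16, from UBE2C at -2.98 to SMC4 at -0.79), where 1.43% of all tested genes were called lower and 2.21% higher. Without POST-CX tumor 91 the median was -2.40. INCENP lost its call without POST-CX tumor 44. Centering gave 299 lower and 273 higher genes over all, from 251 and 388, and 46 called genes of the list.

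Castration alone was followed by no called difference in these genes. For POST-CX against PRE-CX, limma called 0 of 47, while 1.28% of all tested genes were called lower and 2.39% higher. An unadjusted p under 0.05 was reached by 3 of the 47 and by 6858 of all tested genes. The median difference was -0.50 with 46 of 47 negative, and without POST-CX tumor 91, the lowest POST-CX tumor in all 47 genes, it was -0.25. CDK1 ran from 132 to 224 rescaled TPM in PRE-CX (median 177) and from 32.0 to 177 in POST-CX (median 124), with a difference of -0.62 (95% interval -1.40 to 0.15). MKI67 ran from 5.04 to 25.8 in PRE-CX (median 13.7) and from 5.77 to 15.1 in POST-CX (median 11.0), with a difference of -0.28 (95% interval -0.93 to 0.38). For CDK1 5 of the 8 POST-CX tumors lay below every PRE-CX tumor, and the interval reaches past a difference of -1. For MKI67 all 8 lay within the PRE-CX range, and the interval stays short of that size. With centering 347 genes were lower and 225 higher, and with the TPM as deposited 291 and 157, from 225 and 420.

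The relapse after castration also passed no test in these genes. For CRPC against PRE-CX, limma called 0 of 47 (11 at an unadjusted p under 0.05, and 5795 of all tested genes), and 1.16% of all tested genes were called lower and 2.18% higher. All 47 differences were negative, with a median of -0.56, and CDK1 was at -0.68 (95% interval -1.41 to 0.05) and MKI67 at -0.57 (-1.19 to 0.04). For CRPC against POST-CX, limma called 0 of 47, with 0 at an unadjusted p under 0.05 (2259 of all tested genes), and the calls over all genes were 0.0114% lower and 0.00568% higher. The median of -0.11 turned to 0.13 with the TPM as deposited and was -0.31 without POST-CX tumor 91. Centering gave 247 lower and 284 higher genes in CRPC against PRE-CX, from 204 and 383.

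The next question is whether the genes returned when tumors grew again on the drug. As a group, ENZR tumors did not differ from ENZS tumors by the test. Limma called 0 of 47 genes and 0 of all 17593, which is 0% in both directions. An unadjusted p under 0.05 was reached by 36 of the 47 and by 1752 of all tested genes, and the lowest adjusted p of the list was 0.306, for NCAPH. All 47 differences were positive, with a median of 0.62 against -0.04 over all tested genes, and without POST-CX tumor 91 and ENZR tumor 87 the median was 0.72. With centering the median was 0.66 and with the TPM as deposited 0.53.

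MKI67 ran from 1.12 to 13.1 rescaled TPM in ENZR (median 3.10) against the 0.359 to 5.83 of ENZS given above, and its difference was 0.69 (95% interval 0.17 to 1.21, adjusted p = 0.394). CDK1 ran from 10.5 to 157 (median 26.1), with a difference of 0.62 (0.01 to 1.24, adjusted p = 0.495). For both genes the highest ENZR tumor lay well above the highest ENZS tumor, while the lowest tumors of the groups differed less for CDK1 (10.5 and 9.55) than for MKI67 (1.12 and 0.359). BIRC5 had the highest difference, 0.99 (0.16 to 1.81), followed by UBE2C at 0.98, NUSAP1 at 0.97, PBK at 0.95 and FOXM1 at 0.95. INCENP had the lowest, 0.15 (-0.13 to 0.44), next to SMC4 at 0.32 (-0.04 to 0.68), CCNB1 at 0.34, KIF11 at 0.39 and CENPE at 0.43. By role, the medians lay between 0.55 for the spindle checkpoint and 0.95 for anaphase onset.

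The mean of a group hides how these tumors were arranged. In ENZR tumors 104 and 75, 46 of the 47 genes were above the highest ENZS tumor, where 8.84% and 9.40% of all tested genes were. In tumor 94 this held for 36 genes (9.36% of all tested genes) and in tumor 100 for 23 (6.52%). Tumor 21 had 10 such genes, close to its share of all tested genes (21.2%). Tumors 103 and 72 had 7 each (4.30% and 13.1% of all tested genes), and tumors 33, 95 and 105 had 2, 1 and 1 (8.34%, 5.02% and 5.12%). Tumors 23, 64, 65, 87 and 98 had 0, where 2.21% to 15.2% of all tested genes were above the edge. The share over all genes did not follow the order of the counts, being highest in tumor 21 and next highest in tumor 98. Tumors 75 and 104 were the highest pair of ENZR tumors in 41 of the 47 genes, and 98 was the lowest in 31.

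Because ENZS tumor 45 set the upper edge for most genes, the counts move without it. Tumors 104, 94, 75 and 100 then had 47, 47, 46 and 44 genes above the highest ENZS tumor, against 9.40%, 10.3%, 10.1% and 7.40% of all tested genes. Tumors 103, 72 and 21 had 33, 26 and 25, against 5.45%, 14.1% and 22.1%. Tumors 33, 95 and 105 had 5, 3 and 1, against 9.00%, 5.63% and 5.66%. So 7 ENZR tumors rather than 3 had over 23 of the 47 genes above this edge, and the other 8 had at most 5. ENZS tumor 45 itself had 43 genes above it, against 7.21% of all tested genes. Passing this edge was thus not particular to ENZR tumors, and the edge was chosen after seeing the data. With ENZS 45 kept in the edge, CRPC tumors had 19 to 47 genes above the highest ENZS tumor (median 46).

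**Figure D3:**
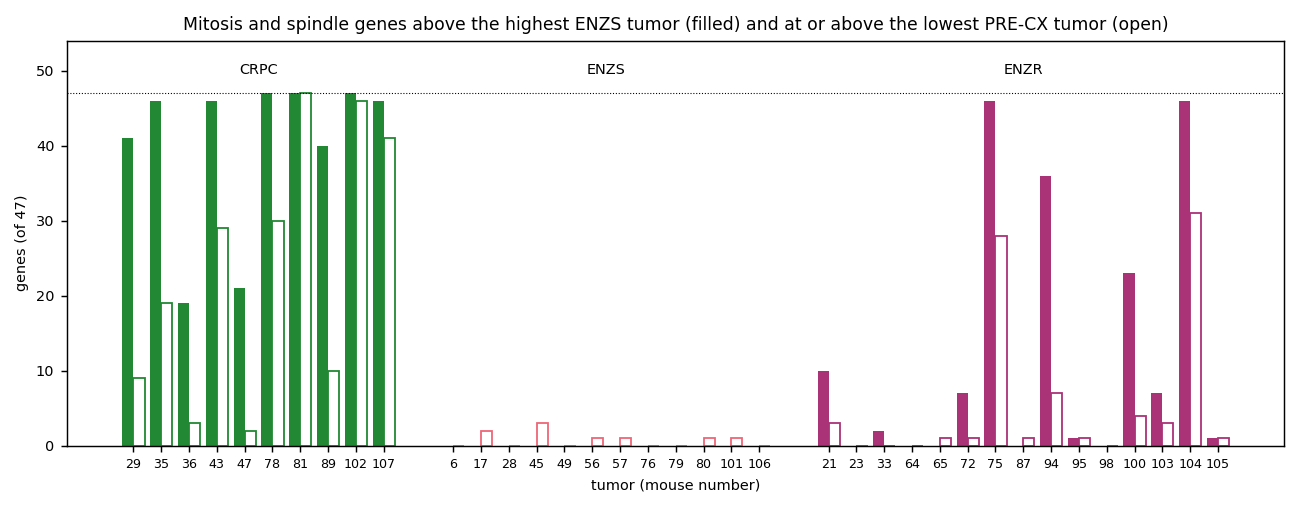
Each tumor of the CRPC, ENZS and ENZR groups has a filled bar, the number of the 47 genes above the highest ENZS tumor, and an open bar, the number at or above the lowest PRE-CX tumor. Of the ENZR tumors, 104 and 75 reach 46 genes above the ENZS range, 94 reaches 36 and 100 reaches 23, and 5 tumors stay at 0.

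The PRE-CX level was met less often. ENZR tumors 104 and 75 had 31 and 28 of the 47 genes at or above the lowest PRE-CX tumor, where 88.7% and 84.2% of all tested genes were. Tumor 94 followed with 7 genes (88.6% of all tested genes) and tumor 100 with 4 (87.7%). The other 11 tumors had 3 or fewer, where 77.5% to 90.2% of all tested genes were. For 11 of the 47 genes every ENZR tumor lay below every PRE-CX tumor, against 0.784% of all tested genes. FOXM1, NCAPH and SMC4 exceeded the ENZS range in 7 ENZR tumors and BUB1 and TTK, among others, in 2, so the number of tumors past that edge also depended on the gene. In the highest tumor, 104, the mean of the 47 genes was 4.46, within the PRE-CX range of 4.35 to 5.27, and tumor 75 at 4.37 was also within it.

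Human symbols made up 90.1% of the total in ENZR tumor 104, 94.9% in 75, 94.3% in 94 and 93.8% in 100, within the range of the PRE-CX tumors (82.7% to 97.5%). Tumor 87, at 12.1%, had the second-lowest mean of the 47 genes among ENZR tumors, 1.59, above tumor 98 at 1.28. The markers of stroma, vessel and blood summed to 67.8 rescaled TPM in tumor 104, 19.8 in 75 and 51.0 in 94. These sums were below the ENZR median of 88.9, and the sum of 94.2 in tumor 100 was above it. The part of these values in the counts was not tested.

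Whether the ENZR tumors were more spread than the ENZS tumors was tested on the absolute deviation from the group median. The SD of log2 values had a median over the 47 genes of 0.31 in PRE-CX, 0.67 in POST-CX, 0.53 in CRPC, 0.80 in ENZS and 1.06 in ENZR. The deviation was larger in ENZR for 45 of 47 genes, by a median of 0.16 (0.05 over all tested genes), from -0.07 for PTTG1 to 0.43 for AURKB. Limma called 0 of 47 and 0 of all tested genes, 0%, with 2 of the 47 and 1224 of all tested genes at an unadjusted p under 0.05.

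As a group, ENZR tumors remained below CRPC and PRE-CX tumors, which had never received the drug. A comparison of ENZR with POST-CX was not run. Tumors 104 and 75 had means of the 47 genes of 4.46 and 4.37, above the CRPC median of 4.31. The next highest ENZR tumors, 94 at 3.85 and 100 at 3.66, also lay within the CRPC range of 3.57 to 5.02. Against CRPC, 38 of 47 genes were lower, where 0.819% of all tested genes were called lower and 0.665% higher. The median was -1.41, from PBK at -1.97 and UBE2C at -1.92 to ECT2 at -0.73, INCENP at -0.59 and SMC4 at -0.25 (95% interval -0.63 to 0.13, adjusted p = 0.325). FOXM1 fell by 1.55 (adjusted p = 0.00227), CDK1 by 1.58 (adjusted p = 0.00083), PLK1 by 1.65 (adjusted p = 0.00102) and MKI67 by 1.06 (adjusted p = 0.00454). CENPE, KIF11, NCAPH, PRC1, ASPM, KIF15, ECT2 and INCENP passed on adjusted p and missed the size of 1, so 46 genes passed on p, as did 5.45% of all tested genes in that direction. All 8 kinases and cyclins, both transcription factors, all 4 checkpoint and cohesion genes and all 3 genes of anaphase onset were called. Without POST-CX tumor 91 and ENZR tumor 87, 36 were called, MKI67 (-0.99) and CKAP2L (-0.97) then being under the size. Centering gave 43 called genes of the list and 207 lower and 45 higher genes over all, the TPM as deposited 42, 205 and 29, against 144 and 117 before.

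Against PRE-CX, 46 of 47 genes were lower in ENZR, where 2.83% of all tested genes were called lower and 7.38% higher. The median was -1.94, from UBE2C at -2.61 to SMC4 at -0.41 (adjusted p = 0.0675). PRE-CX means were 1.33 to 5.41 times those of ENZR, with a median of 3.41, against 6.58 for ENZS. These comparisons share the PRE-CX, CRPC, ENZS and ENZR tumors among them, so they are not separate evidence. INCENP, just past the size of 1, lost its call when single tumors were left out. Centering changed the balance over all genes to 825 lower and 702 higher, from 498 and 1299, and the TPM as deposited to 668 and 796.

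**Figure D4:**
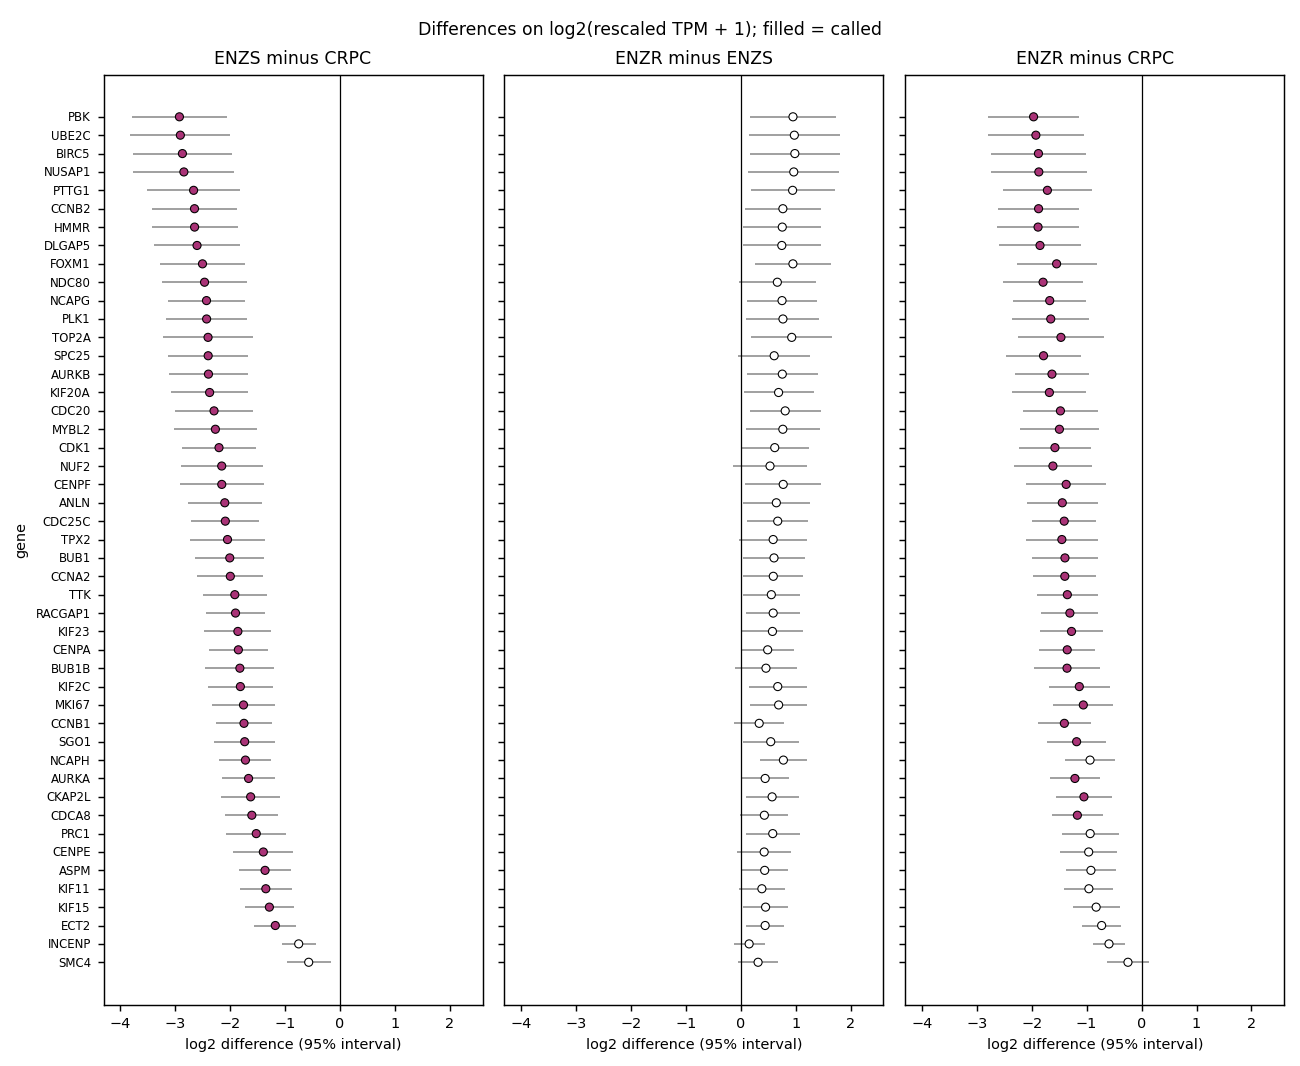
Each point is the log2 difference of 1 of the 47 genes with its 95% interval, for ENZS minus CRPC, ENZR minus ENZS and ENZR minus CRPC, filled where called. The first set lies between -2.92 and -0.57, the second between 0.15 and 0.99 with no filled point, and the third between -1.97 and -0.25.

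The relapse step on enzalutamide (ENZR minus ENZS) was set against relapse under castration alone (CRPC minus POST-CX) in the same fit. The difference was positive for all 47 genes, with a median of 0.76, from CCNB1 at 0.36 to TOP2A at 1.34. Limma called 0 of 47, with 10 at an unadjusted p under 0.05 (2382 of all tested genes), and 0.0455% of all tested genes were called lower and 0.0284% higher. Without POST-CX tumor 91 and ENZR tumor 87 the median was 1.07, again with 0 called. A difference between the steps was therefore not detected for any of these genes.

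The genes moved together from tumor to tumor within a group. Over the 1081 pairs of the 47 genes, the median Pearson r was 0.68 over the 9 PRE-CX tumors, 0.96 over the 8 POST-CX tumors and 0.89 over the 10 CRPC tumors. It was 0.92 both over the 12 ENZS and over the 15 ENZR tumors. The POST-CX value was 0.81 without tumor 91. Genes of 1 tumor share its library, its human share and its rescaling, which moves any list together. Over the same tumors, in the order of the groups above, the 10 cohesin genes had medians of 0.82, 0.61, 0.73, 0.43 and 0.42. The 11 inhibitors of the cell cycle had -0.05, 0.24, 0.20, 0.05 and 0.13. A list of 50 other G2/M genes had 0.53, 0.92, 0.81, 0.77 and 0.86, lower than the 47 genes in every group. A list of 20 spindle and centrosome genes had 0.78, 0.65, 0.64, 0.19 and 0.30. The cohesin and the spindle and centrosome genes thus had higher medians than the 47 genes in PRE-CX, and lower ones in the other groups.

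The first principal component carried 92.8% of the variance of the 47 genes over the ENZS tumors and 92.5% over the ENZR tumors, against 69.1% in PRE-CX. Kendall's W is the agreement of the genes on the order of the tumors. It was 0.57 in PRE-CX, 0.81 in POST-CX (0.72 without tumor 91), 0.86 in CRPC, 0.84 in ENZS and 0.90 in ENZR. The order was thus nearly the same for most genes: among ENZR tumors 23, 65 and 98 were in the lowest 5 for 46 genes and 87 for 44, and among ENZS tumors 45, 17 and 76 were in the highest 4 for 46. In CRPC, tumors 81 and 102 were in the highest 3 for 46 genes and tumor 36 in the lowest 3 for 47.

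Single genes followed the rest to different degrees. With group means removed, NDC80 and DLGAP5 had an r of 0.98 with the mean of the other genes over 54 tumors, while NCAPH was at 0.86, SMC4 at 0.60 and INCENP at 0.57. The size of movement differed too. Over the 15 ENZR tumors, a change of 1 in the mean of the others on the log2 scale went with 1.52 for BIRC5, 1.49 for UBE2C and 1.45 for PBK and NUSAP1, and with 0.55 for NCAPH, 0.51 for ECT2, 0.37 for SMC4 and 0.27 for INCENP. INCENP, SMC4 and ECT2 were also among the 5 genes with the smallest differences in ENZS against CRPC, while NCAPH was not.

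**Figure D5:**
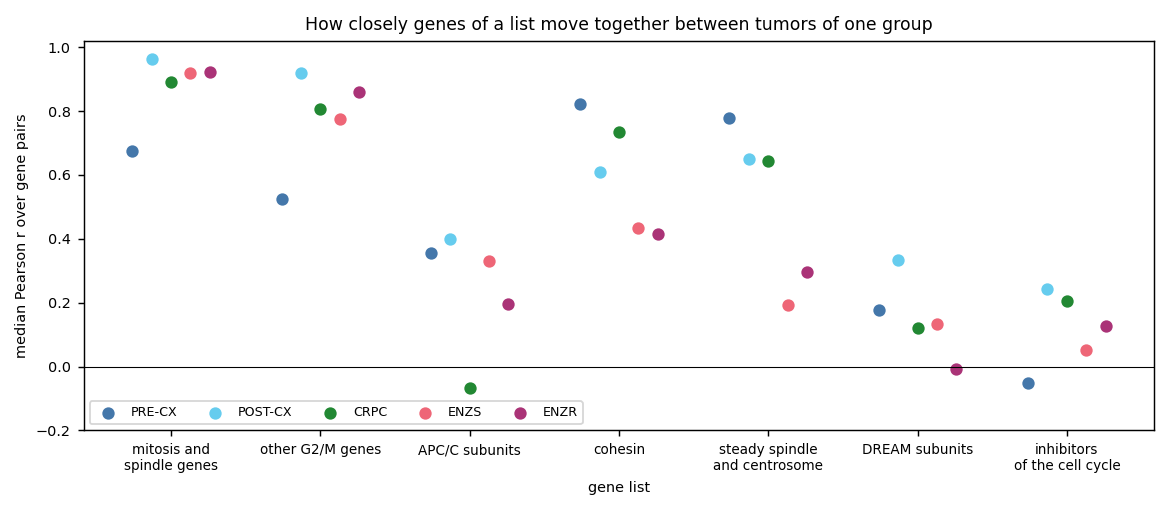
The vertical axis is the median Pearson r over pairs of genes of a list, the horizontal axis holds the 47 genes and 6 other lists, and each point is 1 of the 5 groups, by color. The 47 genes lie between 0.68 and 0.96, above the inhibitors of the cell cycle (-0.05 to 0.24) and the DREAM subunits (-0.01 to 0.33) in every group. The other G2/M genes come near them, at 0.53 to 0.92.

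Of the genes outside the list, those most like its mean over the 54 tumors, with group means removed, were CDCA5 and MELK (r = 0.98) and GTSE1, KIF4A, DEPDC1B, PIMREG, NEK2, CEP55 and FAM83D (0.97), then SPC24 (0.96). An r above 0.7 was found for 95.7% of the 47 genes, for 88% of 50 other G2/M genes and for 1.35% of all other tested genes.

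The rest of the machinery was set beside the list in the drug step (ENZS against CRPC, shares of all tested genes as above). The spindle and centrosome list was set up as steady genes, and all lists were chosen with earlier results of these data known. The counts of these lists are therefore a description and no independent contrast. Of the 50 other G2/M genes 38 fell, with a median of -1.55, led by NEK2 at -2.50 and MELK at -2.39, while BORA was at -0.19 and NCAPD3 at -0.27. Limma called none of the 15 APC/C subunits (median 0.07) and 10 cohesin genes (0.27). It also called none of 20 spindle and centrosome genes that are also used outside mitosis (0.11) and 11 DREAM subunits (0.06). An unadjusted p under 0.05 was reached by 5, 6, 9 and 3 genes of these lists. Some passed on adjusted p and missed the size of 1. These were 5 APC/C and 3 cohesin genes, all higher. Of the spindle and centrosome genes 2 were lower and 6 higher, and of the DREAM subunits 2 lower and 1 higher. Over all tested genes, adjusted p alone gave 1128 lower and 5519 higher. Of 11 inhibitors of the cell cycle (median 0.19), CDKN2B, an inhibitor of cyclin D kinases, was higher by 1.52 (adjusted p = 0.000886) and none was lower. In ENZR against CRPC, 29 of the 50 other G2/M genes were called lower. In ENZR against ENZS, limma called 0 genes of all these lists, with 25 of the other G2/M genes and at most 2 genes of any other list at an unadjusted p under 0.05, and medians of 0.49 for the other G2/M genes and -0.10 to 0.02 for the rest. A CHR match was present in 73.8% of the promoters found for the other G2/M genes and in 10% to 27.8% for the other lists.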

How the data were processed

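RNA-seq of 54 tumors was used. Per the submitters' processing notes and the methods, reads were checked with FastQC 0.11.9, trimmed with Trim Galore 0.6.5, aligned with STAR 2.7.2b to a combined human (GRCh38) and mouse (GRCm38) reference and quantified with RSEM 1.3.3. The authors deposited TPM per human symbol, without mouse genes. TPM hold no read depth of single tumors, so no counting interval is given and precision rests on the spread between tumors. Each tumor was rescaled to 1000000 over human symbols. Genes at 1 or more in at least 8 tumors were tested on log2(rescaled TPM + 1) with limma 3.58.1 (R 4.3.3), in 1 fit of 5 group means with the trend option and Benjamini-Hochberg adjustment within each comparison, and checked on simulated data. No 2 tumors held identical values (highest r 0.986). Other steps ran in Python 3.11.15. The 47 genes and the other lists were chosen with earlier results of these data known. All 47 could be named. By rule, a panel of 17 genes and the 5 largest and 5 smallest differences got values, and other lists their extreme genes. Alternatives were the deposited TPM, centering on the median, a pseudocount of 0.1, no expression filter, only the groups compared, adjusted p alone, the robust option of limma, Spearman correlation and leaving out tumors.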

Additional observations from a re-analysis of the deposited data

Results flagged for a closer look

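Within groups of up to 10 tumors, Dixon's test marks a lowest or highest tumor that lies far from the others, and it marked 5 of 57 values, where chance marks about 1 in 20. In POST-CX tumor 91, CDK1 was at 32.0 rescaled TPM, TOP2A at 12.1 and the mean of the 47 mitosis and spindle genes at 2.90 on the log2 scale, each the lowest of its group of 8. In CRPC tumor 81, CDK1 was at 267 rescaled TPM, the highest of 10. In CRPC tumor 43, human symbols made up 77.1% of the total, the lowest of 10.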

How the results depend on the processing

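The calls among the 47 genes stayed within 1.5 times the reported number in every comparison and alternative. Counts over all genes moved more, since each alternative changes the size scale, the size limit or the genes and tumors used. With a pseudocount of 0.1 the genes called were 3980 for ENZS minus PRE-CX (2384 before), 1183 for ENZS minus CRPC (497), 1 for ENZR minus ENZS (0), 3283 for ENZR minus PRE-CX (1797), 659 for ENZR minus CRPC (261), 1499 for POST-CX minus PRE-CX (645), 1275 for CRPC minus PRE-CX (587) and 1217 for ENZS minus POST-CX (639). With adjusted p alone they were 10750, 6647, 10274, 4681, 4620, 3525 and 4871 for ENZS minus PRE-CX, ENZS minus CRPC, ENZR minus PRE-CX, ENZR minus CRPC, POST-CX minus PRE-CX, CRPC minus PRE-CX and ENZS minus POST-CX, with 11 for CRPC minus POST-CX and 35 for the difference of relapse steps. CRPC minus POST-CX (3) gave 0 as deposited, 7 centered, 1 without the expression filter, 17 in a fit of only these groups and 15 without POST-CX 91 and ENZR 87. The difference of relapse steps (13) gave 32, 46, 4 and 27 as deposited, centered, without the filter and without both tumors. ENZR minus ENZS gave 1 as deposited, and the spread test 4 without the filter.

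Leaving out 1 tumor at a time, genes called ranged from 0 (without CRPC 47) to 15 (without POST-CX 91) for CRPC minus POST-CX, from 3 (without POST-CX 44) to 30 (without ENZR 98) for the difference of relapse steps and from 0 to 1 for ENZR minus ENZS. Called genes of the list ranged from 36 (without ENZR 65 or 87) to 43 (without CRPC 47) for ENZR minus CRPC, and the list's median from -2.17 to -1.95 for ENZS minus CRPC, 0.50 (without ENZR 104) to 0.75 (without ENZS 45) for ENZR minus ENZS and -0.58 to -0.25 for POST-CX minus PRE-CX. In POST-CX minus PRE-CX, neither called, TOP2A (-0.06) ranged from -0.13 to 0.11 and CENPF (-0.01) from -0.10 to 0.19, the upper values without POST-CX 91, also with ENZR 87 left out. Without PRE-CX 53, TOP2A was at 0.04 and CENPF at 0.05, and CENPF also turned positive without PRE-CX 4, 62, 67 or 112 or POST-CX 18. Co-movement in POST-CX (0.96) was 0.83 by Spearman and 0.81 without tumor 91. ENZR tumors with over 23 of 47 genes at or above the lowest PRE-CX tumor numbered 2, and 1 after centering. Those with over 23 above the highest ENZS tumor numbered 3, and 7 without ENZS 45, an alternative chosen after seeing the data. No paired analysis was possible because no mouse number recurs between groups. The depth of single tumors is not known from TPM, and AURKB in ENZR 87 and SPC25 in ENZR 98 are listed at 0.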

Other observations

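KLK3, which encodes PSA, the serum marker that timed the harvests, had median levels of 4679 rescaled TPM in PRE-CX, 1529 in POST-CX, 4690 in CRPC, 2803 in ENZS and 1231 in ENZR. In the ENZR tumors with most mitosis and spindle genes above the ENZS range, it was at 6704 (tumor 104), 4991 (tumor 75), 5120 (tumor 94) and 1231 (tumor 100). These levels are given with no test.

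Some genes ran opposite to the 47 genes from tumor to tumor. Over the 54 tumors with group means removed, TMEM61 (r = -0.83), ELAC1 (-0.81), HOXC13-AS (-0.80), MMP26 (-0.80) and CD59 (-0.79), which protects cells from complement, had the most negative r with their mean. They were picked for this among 17546 genes, and all values of a tumor share its library and rescaling, so the r are a description.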
